A study of Glycine max with 12 samples.

Results

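The seed coat of the soybean cultivar Williams was compared at 2 early stages, when the fresh seed weighed 5 to 6 mg and when it weighed 25 to 50 mg. Of 56044 gene models in the deposited table, 136 unannotated models of chromosome 13 were set aside, both libraries were brought to the same sum of RPKM, and the 30960 models that then reached 1 RPKM at 1 stage or both were kept. RPKM is a length- and depth-scaled read count, here the number of alignments to a model divided by its length and by the alignments of the library. Both stages are 1 library each, of immature seed coats dissected by hand from greenhouse plants that carry the ii allele of the I (inhibitor) locus, with yellow seed coats and a black hilum, and the number of seeds or plants behind a library is not given in the sources used here. The series holds 12 libraries without replicates, and the others are used only as levels beside these: the Williams seed coats of 200 to 300 mg and dry seed, the 5 to 6 mg and 200 to 300 mg cotyledons, the root, the furled leaf, and the 25 to 50 mg seed coat of W55, a Williams line with a recessive i allele, a deletion at that locus and black seed coats.

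The soybean seed coat grows from the integuments of the ovule around a young embryo and a transient endosperm. In its early life it divides and expands, makes proanthocyanidins from the flavonoid pathway in some cell layers, and receives sucrose and amino acids through its vascular tissue for release to the embryo. Later its outer layers build thick walls, among them the palisade of macrosclereids and the hourglass cells beneath it, and the surface takes up cutin and waxes.

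The 5 to 6 mg library held 77180381 reads of 75 nt read singly on a HiSeq2000, and the 25 to 50 mg library 19151254 reads of 70 nt read in pairs on a GAII. Stage therefore cannot be told apart from machine, read length, read type or depth. W55 at 25 to 50 mg was read as the Williams library of that stage was, and the 5 to 6 mg cotyledon and the root as the 5 to 6 mg seed coat was. As a stage is 1 library, nothing here is checked by replicates and no test was run. The hits behind the values were recovered, and folds carry a 95% Clopper-Pearson interval from them, which covers counting error only. Unannotated models of chromosome 13 took 75.6% of the deposited RPKM at 5 to 6 mg and 5.53% at 25 to 50 mg. Of what was left, other models without annotation took 28.8% at 5 to 6 mg and 7.07% at 25 to 50 mg.

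The common scale decides much of the balance between the stages. On the scale of equal sums the median kept model lay 0.95 higher at 25 to 50 mg on the log2(RPKM + 0.1) scale, a 1.93-fold difference, with a middle range from 0.21 to 1.65. At least 4-fold higher at 25 to 50 mg were 5030 models, which is 16.2% of those kept, and at least 4-fold lower were 605, which is 1.95%. After the median difference was taken off every model, 1620 were at least 4-fold higher (5.23%) and 1737 at least 4-fold lower (5.61%), so that the share of higher among all such models went from 89.3% to 48.3%. A count of higher models is therefore given below on both scales, and a model is called higher only if it lies above the median difference and lower only if it lies below 0. In these terms a model at least 4-fold higher on the median scale is so on both, and so is a model at least 4-fold lower on the scale of equal sums. List counts are to be read beside the shares of all kept models: 16.2% higher (5.23% on the median scale) and 1.95% lower. The levels and folds given for single models are on the scale of equal sums. Without rescaling, each 5 to 6 mg level would be divided by 1.62. Of the kept models, 22390 reached 1 RPKM in both libraries, 7502 at 25 to 50 mg alone and 1068 at 5 to 6 mg alone, and a model that passed through 1 library alone had to differ.

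**Figure D1:**
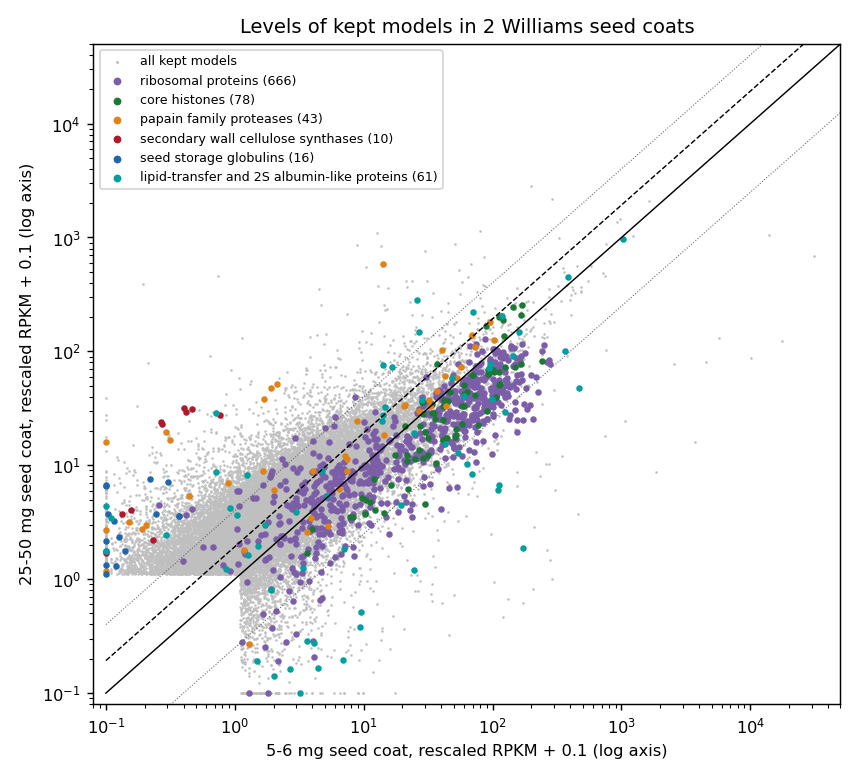
Rescaled RPKM + 0.1 of the 30960 kept models in the 5 to 6 mg (x) and 25 to 50 mg (y) Williams seed coat, on log axes, with 6 gene lists in colour and their kept members counted in the legend. The solid line marks equal levels, the dashed line the median difference of 0.95 log2 and the dotted lines 4-fold. Secondary wall cellulose synthases and seed storage globulins lie at the upper left, and ribosomal proteins and core histones mostly below the dashed line.

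A trend with the length of the model was present in all but the shortest bin of models. The median log2 difference was 0.84 in models from 65 to 724 nt, 0.15 in models from 725 to 1016 nt and 1.60 in models from 3249 to 16968 nt, and Spearman's rho with length was 0.29 across the 30960 models, which are not independent replicates. With the mean level rho was −0.19, and the 7374 models with at least 5 RPKM in both libraries had a median difference of 0.35. For some lists the median is therefore also given with each model's length bin brought to the median of all kept models. These are the histones and ribosomal proteins, which are short, and the primary wall cellulose synthases, which are long.

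**Figure D2:**
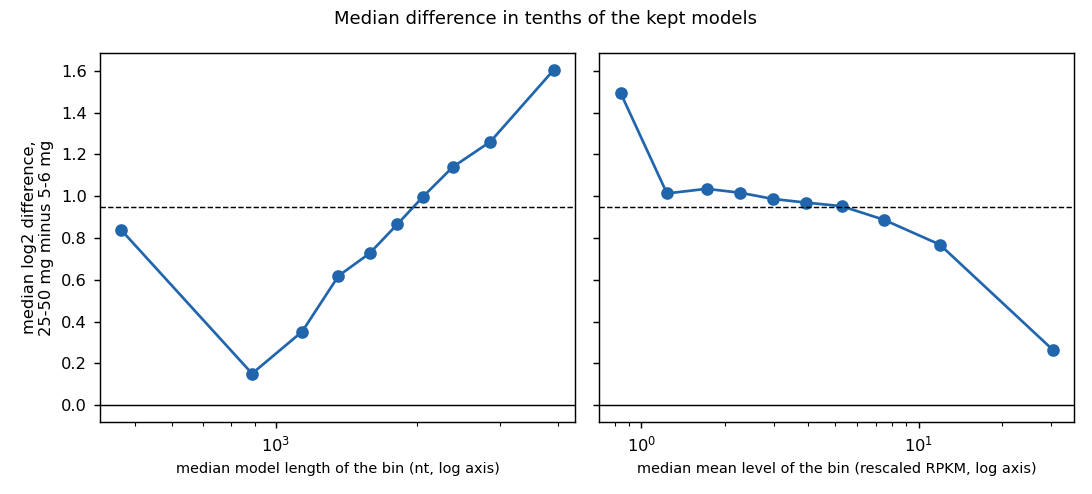
Median log2 difference (25 to 50 mg minus 5 to 6 mg, y) in 10 equal bins of the kept models ordered by model length in nt (left) and by mean rescaled RPKM (right), with both x axes logarithmic and 1 point per bin at its median. The dashed line is the median of all kept models at 0.95 and the solid line is 0. After the first bin (0.84) the difference climbs with length from models of 725 to 1016 nt (0.15) to those of 3249 to 16968 nt (1.60).

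Several of the strongest seed coat transcripts were high at both stages. The BURP domain protein Glyma.07G176700, matched to the Arabidopsis RD22, had 1626 RPKM at 5 to 6 mg, 2106 at 25 to 50 mg and 2656 in W55, against 0.0176 at 200 to 300 mg. The peroxidases Glyma.07G260300 and Glyma.17G013600, matched to PRXR1, had 1220.2 and 974 RPKM at 5 to 6 mg and 1039.9 and 1440.2 at 25 to 50 mg. The lipid transfer protein Glyma.01G132500, matched to LTP1, stood at 1019 and 977 RPKM. On the scale of equal sums each of these 4 differed by less than 2-fold between the stages. At 25 to 50 mg the highest model was a subtilase and the next Glyma.09G092700, a model with an extensin-like repeat, which went from 289 to 2172 RPKM, 7.51-fold higher (95% interval 7.44 to 7.57).

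Subtilases, serine proteases that are mostly secreted into the wall, held the largest summed gain of the protease lists. Their summed level was 601 RPKM at 5 to 6 mg, 4012 at 25 to 50 mg and 3352 in W55, and 216 at 200 to 300 mg. Of 69 kept among 121 listed, 14 were at least 4-fold higher (7 on the median scale) and 1 lower, with a median log2 difference of 0.71, below that of all kept models. Most of the sum came from 1 model. Glyma.06G022600, matched to SBT5.2, had 198 RPKM at 5 to 6 mg and 2815 at 25 to 50 mg, the highest level of any kept model there, and was 14.2-fold higher (14.1 to 14.3). Glyma.06G022500, Glyma.04G022500 and Glyma.04G022600, with the same match, went from 1.81 to 22.9, from 12.8 to 372 and from 10.4 to 121 RPKM. In W55 the leading model had 2314 RPKM, and in the root, furled leaf and 5 to 6 mg cotyledon it had at most 1.33. The 200 to 300 mg seed coat had 4.16 and the dry one 0.456, so that among the 4 Williams seed coats the level was highest at 25 to 50 mg. Glyma.17G164100, matched to ARA12, went from 65.6 to 128 RPKM, close to the median difference.

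The papain family cysteine proteases held a small group of models that were low or near 0 at 5 to 6 mg. Of 43 kept, 15 were at least 4-fold higher, 14 of them on the median scale too, and 1 lower, 10 passed through the 25 to 50 mg library alone, and the list's median was 0.75. Glyma.06G275300, matched to SAG12, a vacuolar protease known in Arabidopsis as a mark of leaf senescence, had 14.0 RPKM at 5 to 6 mg, 591 at 25 to 50 mg and 634 in W55, 42.1-fold higher (40.1 to 44.2) at 25 to 50 mg. Another model matched to SAG12, Glyma.12G130500, went from 0.191 to 19.4 RPKM. The papain-type model Glyma.06G273600 went from 0.213 to 16.6. Glyma.06G272900 had no hit at 5 to 6 mg and 15.8 RPKM from 256 hits at 25 to 50 mg, at least 453-fold higher with a floor of 3 hits. Models of 1 family may share reads. At 200 to 300 mg Glyma.06G275300 had 6.90 RPKM and the other 3 were listed at 0. The RD19-like models, vacuolar proteases of many tissues, lay near the median difference: Glyma.04G027600 went from 95.5 to 180.2 RPKM and Glyma.06G027700 from 69.7 to 138. Legumains, the vacuolar processing enzymes, had 1 of 10 at least 4-fold higher on the scale of equal sums and 0 on the median scale, and their sum went from 58.5 to 146 RPKM before it reached 1166 at 200 to 300 mg. Of the Kunitz trypsin inhibitors, Glyma.08G342000 was 9.36-fold lower (7.31 to 12.2) and its neighbour Glyma.08G342100 3.54-fold higher (3.30 to 3.81) at 25 to 50 mg, both matched to KTI1.

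Cellulose synthases of the secondary wall were under 1 RPKM at 5 to 6 mg and reached clear levels at 25 to 50 mg. CESA4, CESA7 and CESA8 are the subunits of the complex that lays down cellulose in secondary walls of Arabidopsis. Of 15 models matched to them, 10 were kept, every one through the 25 to 50 mg library alone, so that no count or median over them is given. The 2 models of CESA4 had 0.174 RPKM at 5 to 6 mg and 22.9 at 25 to 50 mg for Glyma.15G157100, and 0.320 and 29.0 for Glyma.09G051100, which was 90.8-fold higher (75.8 to 109.7). CESA7 showed 0.303 and 31.7 RPKM for Glyma.06G225500, 104.5-fold higher (86.7 to 127), and 0.170 and 23.8 for Glyma.04G153700. CESA8 had 0.366 and 31.1 RPKM for Glyma.06G065000, 85.0-fold higher (71.0 to 103), and 0.669 and 27.7 for Glyma.04G063800. The other 4 kept models reached from 1.61 to 3.98 RPKM at 25 to 50 mg. The 6 models named had lower levels in W55, from 6.02 to 10.6 RPKM, and 7.43 RPKM was left at 200 to 300 mg in Glyma.06G225500. The list summed to 2.33 RPKM at 5 to 6 mg, 178 at 25 to 50 mg and 58.3 in W55. In the root, which was read as the 5 to 6 mg seed coat was, it summed to 80.0. Of the 6 named models, 5 lie in the longest bin of models, where the median of all kept models was 1.60 on the log2 scale.

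Other parts of wall building moved the same way to a smaller degree. The 14 kept cellulose synthases of the primary wall were each above the median difference, 9 of them at least 4-fold higher and 3 on the median scale. They summed to 77.9 RPKM at 5 to 6 mg and 379 at 25 to 50 mg, and 3 of them passed through the 25 to 50 mg library alone. These models are long, with a median of 4129 nt, and all kept models from 3249 to 16968 nt had a median difference of 1.60. The list median was 2.04, and 1.53 with the length bins aligned. Of these 14, Glyma.12G237000, matched to CESA3, went from 10.8 to 41.1 RPKM, and Glyma.16G165900, matched to CESA6, from 2.37 to 25.3, 10.6-fold higher (9.89 to 11.5). Enzymes of xylan and of other secondary wall polymers numbered 19 kept of 57, 12 of them through the 25 to 50 mg library alone. The highest, the DUF579 proteins Glyma.01G189000 and Glyma.11G053200, of a family with xylan methyltransferases in Arabidopsis, went from 3.74 to 89.9 and from 3.44 to 68.0 RPKM. The chitinase-like CTL2 models Glyma.09G038500 and Glyma.15G143600 were 19.8-fold higher (17.6 to 22.3) and 19.3-fold higher (17.2 to 21.6). MYB61, a regulator of secondary wall and mucilage in Arabidopsis, had a pair of models with close values: Glyma.10G142200 went from 0.581 to 29.6 RPKM and Glyma.20G090700 from 0.507 to 28.3, with 19.03 and 25.3 in W55. The NAC factors of the secondary wall list, by contrast, were low: 2 of 25 models were kept, Glyma.07G201800 and Glyma.13G174700, both matched to NAC073, at 2.23 and 2.29 RPKM at 25 to 50 mg.

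Xylem was checked beside these lists because vascular bundles run through the seed coat. Models matched to the xylem peptidases XCP1 and XCP2 and the vessel regulators VND6 and VND7 summed to 4.73 RPKM at 5 to 6 mg, 23.2 at 25 to 50 mg, 15.5 in W55 and 102 in the root. Of these 9 models 5 were kept, 4 of them through the 25 to 50 mg library alone. The XCP2 models Glyma.04G014800, Glyma.06G014700 and Glyma.04G014700 went from 0.342, 0.0890 and 0.103 to 5.32, 2.68 and 2.90 RPKM, and Glyma.06G014800, also matched to XCP2, reached 2.58. The XCP1 model Glyma.15G083400 had 3.94 and 8.78 RPKM and 0.00487 in the root. No VND6 or VND7 model was kept. In the root the first 3 XCP2 models named had 33.2, 23.4 and 22.9 RPKM, and the 6 named cellulose synthases from 5.53 to 17.5. The part of vascular tissue in the cellulose synthase difference was not tested.

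Fasciclin-like arabinogalactan proteins, cell surface proteoglycans, had 9 of 25 kept models at least 4-fold higher (4 on the median scale) and 0 lower. Of the 25, 7 passed through the 25 to 50 mg library alone and had to differ, which fixes part of these counts. The summed level of the list went from 391 to 1333 RPKM. Most of it came from the FLA7 pair Glyma.02G307700 and Glyma.14G005300, at 84.5 and 86.6 RPKM at 5 to 6 mg and 382 and 378 at 25 to 50 mg. Far steeper were 3 models of FLA11, which accompanies secondary wall cellulose in Arabidopsis stems: Glyma.19G180700 went from 0.426 to 30.3 RPKM, 71.1-fold higher (53.4 to 96.4), and Glyma.03G180000 and Glyma.03G179900 reached 19.3 and 21.4 from 0.265 and 0.144. These 3 were kept through the 25 to 50 mg library alone, so that they had to differ. Proline-rich and related wall proteins had 34 of 141 at least 4-fold higher (16 on the median scale). Of the 141, 32 passed through the 25 to 50 mg library alone and 3 through the 5 to 6 mg library alone. Glyma.04G005400, matched to PRP2, had 0.548 RPKM at 5 to 6 mg, 90.6 at 25 to 50 mg and 36.5 in W55.

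**Figure D3:**
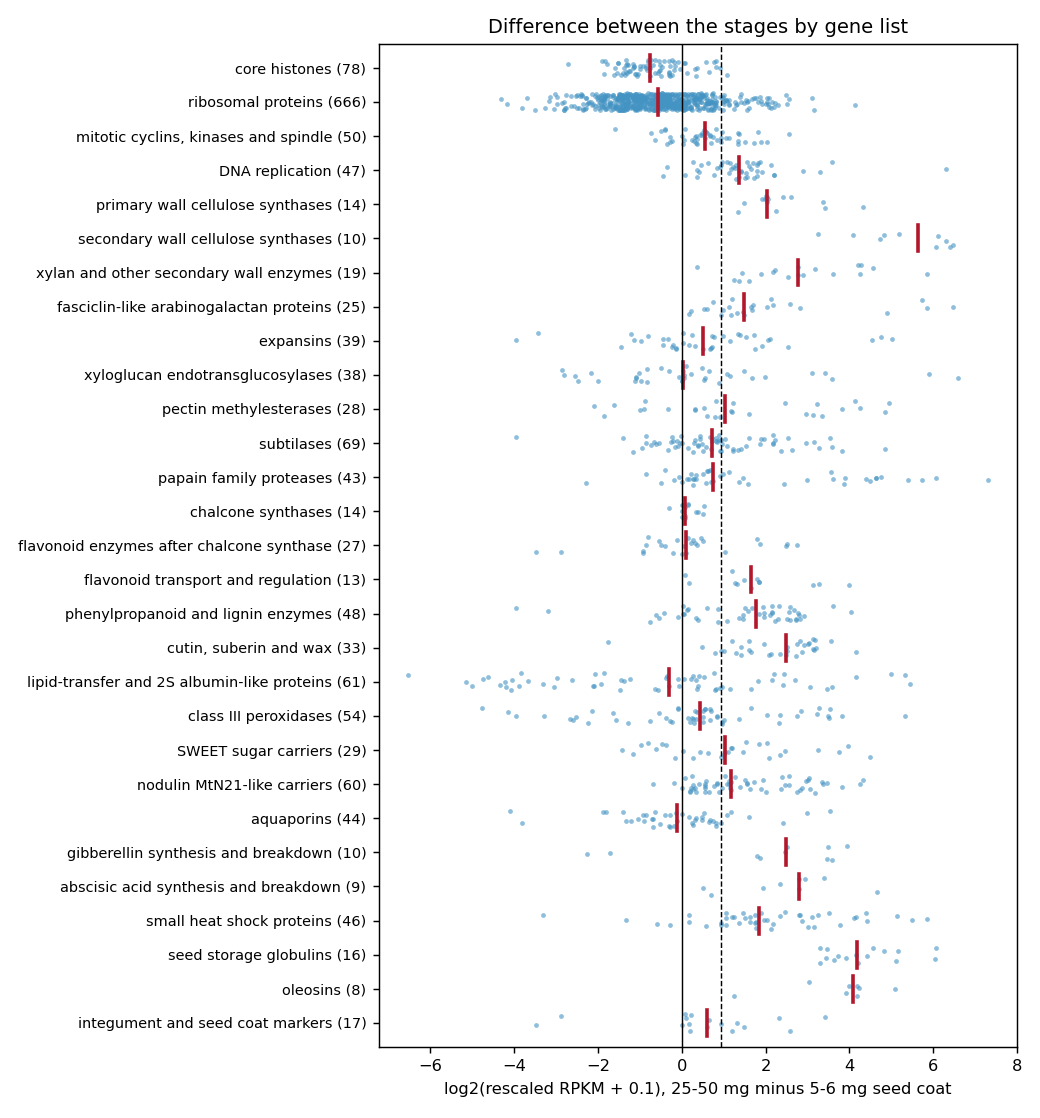
Difference on the log2(rescaled RPKM + 0.1) scale, 25 to 50 mg minus 5 to 6 mg seed coat (x), of the kept members of 29 gene lists, 1 point per model, with the number of kept members in brackets and the list median as a red bar. The solid line is 0 and the dashed line the median of all kept models, 0.95. Core histones, ribosomal proteins, lipid transfer proteins and aquaporins have medians below 0, though without rescaling the last 3 have medians of 0.12, 0.49 and 0.58, and secondary wall cellulose synthases, storage globulins and oleosins, whose members were kept through the 25 to 50 mg library alone, lie far to the right.

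Among enzymes that trim pectin, the esterases held some models with much higher levels at 25 to 50 mg. Pectin methylesterases, which remove methyl groups from pectin, summed to 155 RPKM at 5 to 6 mg and 979 at 25 to 50 mg. Of 28 kept models, 10 were at least 4-fold higher (9 on the median scale) and 1 lower (3). Of the 28, 6 passed through the 25 to 50 mg library alone and 3 through the 5 to 6 mg library alone, and such models had to differ. Glyma.16G014100, matched to PME3, went from 23.4 to 413 RPKM, 17.6-fold higher (17.1 to 18.2), and Glyma.17G044500 from 7.28 to 214, 29.4-fold higher (27.8 to 31.0). Both were near these levels in W55, at 336 and 199.8 RPKM. Pectate lyases, which cleave pectin, had 3 of 12 at least 4-fold higher (1 on the median scale) and 0 lower. Of the esterases, the opposite was seen for Glyma.09G076200, which is annotated with both the esterase and its inhibitor domain, at 8.16 and 1.85 RPKM, with 2.85 in W55.

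Among the xyloglucan endotransglucosylases, which cut and rejoin wall xyloglucan, 5 of 38 were at least 4-fold higher and 5 lower, and the sum went from 727 to 417 RPKM. XTH16 and XTH9 models led at 5 to 6 mg. Glyma.08G107300 and Glyma.05G150400, matched to XTH16, had 149.5 and 107.6 RPKM there and 20.7 and 15.3 at 25 to 50 mg, the first 7.21-fold lower (6.59 to 7.91). Glyma.12G197600 and Glyma.13G304400, matched to XTH9, went from 61.1 and 62.8 to 10.4 and 11.2 RPKM, with 40.7 and 46.1 in W55. In the other direction, the XTH5 models Glyma.02G068900 and Glyma.16G150300 went from 0.0501 and 0.0217 to 8.90 and 11.6 RPKM. Expansins, which loosen walls without cutting them, had 6 of 39 at least 4-fold higher (3 on the median scale) and 2 lower. The first of these counts was near the 16.2% of all kept models. Glyma.10G140200, matched to EXPA17, went from 2.10 to 58.7 RPKM, 28.0-fold higher (24.5 to 32.1), and Glyma.03G035800, matched to EXPA2, from 20.4 to 119, with 374 in W55. Polygalacturonases, which cut pectin chains, had 1 of 34 at least 4-fold higher (0 on the median scale) and 3 lower: Glyma.08G017300 went from 44.6 to 6.996 RPKM and Glyma.18G236700 from 26.2 to 6.14.

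The flavonoid pathway was already at a high level at 5 to 6 mg, and the enzyme at its proanthocyanidin end was lower at 25 to 50 mg. Enzymes after chalcone synthase summed to 3974 RPKM at 5 to 6 mg, 3098 at 25 to 50 mg and 2657 in W55, and to 598 at 200 to 300 mg. Of 27 kept, 3 were at least 4-fold higher, 0 of them on the median scale, and 2 lower. The 2 lower ones are both matched to BAN, the anthocyanidin reductase that makes the epicatechin units of proanthocyanidins. Glyma.08G062000 had 755 RPKM at 5 to 6 mg, 103 at 25 to 50 mg, 111 in W55 and 0 at 200 to 300 mg, and was 7.33-fold lower (7.07 to 7.61) at 25 to 50 mg. Its neighbour Glyma.08G062100 had 6.97 and 0.535 RPKM. Steps before BAN differed less. Flavanone 3-hydroxylase, Glyma.02G048400, had 713 and 487 RPKM, with 373 in W55. The leucoanthocyanidin dioxygenases Glyma.11G027700 and Glyma.01G214200, the step just before BAN, had no direction that held on both scales, at 452 and 361 RPKM at 5 to 6 mg and 561 and 499.9 at 25 to 50 mg. A dihydroflavonol reductase model, Glyma.17G252300, went from 102 to 53.6 RPKM, 1.91-fold lower (1.72 to 2.12). Flavonoid 3'-hydroxylase, which adds the hydroxyl group of the cyanidin type and is matched to CYP75B1, was higher: Glyma.07G039800 had 5.25 and 30.02 RPKM, 5.72-fold higher (5.28 to 6.20).

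Chalcone synthase, the entry enzyme of the pathway and the target of the silencing that keeps Williams coats yellow, summed to 135 RPKM at 5 to 6 mg, 152 at 25 to 50 mg and 514 in W55. None of 14 kept models differed by 4-fold between the stages. The CHS7 model Glyma.01G228700 had 37.0 and 47.1 RPKM and the CHS8 model Glyma.11G011500 28.0 and 31.2, against 279.5 and 202 in W55, and near-identical copies of this family may share reads.

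Transport and regulation of the pathway leaned towards the later stage. All 13 kept models of that list were higher at 25 to 50 mg on the scale of equal sums, 11 of them above the median difference, and 3 at least 4-fold higher on both scales. The laccases matched to LAC15 (TT10), which oxidises flavonoids in the Arabidopsis seed coat, led: Glyma.16G158400 went from 14.6 to 231 RPKM, 15.9-fold higher (15.3 to 16.5), with 148 in W55 and 26.5 at 200 to 300 mg, and the short model Glyma.02G076400 from 1.84 to 16.9. The zinc finger regulator TT1, Glyma.13G090000, had 0.816 and 8.76 RPKM. Models matched to TT8, a bHLH regulator (Glyma.10G026000), and to TTG2 (Glyma.19G177400) had 14.2 and 20.9 RPKM at 5 to 6 mg and 51.2 and 58.4 at 25 to 50 mg, and the MYB regulator matched to TT2, Glyma.17G050500, 17.2 and 39.4. The vacuolar carrier matched to TT12, Glyma.14G032400, stood at 84.5 and 94.7 RPKM, with no direction on both scales.

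Phenylpropanoid and lignin enzymes had 20 of 48 models at least 4-fold higher but 2 on the median scale, and 2 lower. Their median was 1.76, and 31 lay above the median difference. Of the 48, 11 passed through the 25 to 50 mg library alone and 1 through the 5 to 6 mg library alone. The PAL1 models Glyma.19G182300 and Glyma.03G181600, of the enzyme that opens the pathway, had 14.1 and 7.30 RPKM at 5 to 6 mg and 8.24 and 4.77 at 25 to 50 mg. The O-methyltransferase Glyma.06G295700 was 16.8-fold lower (13.2 to 21.7), from 17.2 to 1.023, while Glyma.20G176100 with the same match stood at 148 and 267. CCoAOMT1, a methyltransferase of lignin precursors, went from 0.425 to 6.26 RPKM in Glyma.11G054500. Of class III peroxidases, secreted enzymes that cross-link wall phenolics, 12 of 54 were at least 4-fold higher (7 on the median scale) and 9 lower. Of all kept models, 16.2% were higher (5.23%) and 1.95% lower. Of the 54, 9 passed through the 25 to 50 mg library alone and 8 through the 5 to 6 mg library alone. Such models had to differ, which fixes part of these counts. Glyma.09G022300, matched to peroxidase 2, went from 34.6 to 325 RPKM and was at 367 at 200 to 300 mg, whereas Glyma.10G222500 went from 155 to 8.68, 17.9-fold lower (15.7 to 20.3).

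Genes of cutin, suberin and wax had 33 of 85 models kept, 12 of them through the 25 to 50 mg library alone, so that no count over them is given. Without a minimum the list median was 0.81. Fatty acid hydroxylases had the highest levels, with Glyma.09G282700, matched to CYP86B1, at 3.47 RPKM at 5 to 6 mg, 63.7 at 25 to 50 mg, 42.5 in W55 and 0.00395 at 200 to 300 mg, and Glyma.08G015600, matched to CYP86A7, at 5.07 and 46.7. Of the lipid transfer and 2S albumin-like proteins, small secreted carriers of lipids, 20 of 61 were at least 4-fold lower and 12 higher (7 on the median scale). Of all kept models, 1.95% were lower. However, 11 of the 61 passed through the 5 to 6 mg library alone and 9 through the 25 to 50 mg library alone, which fixes part of these counts. Without a minimum the median of this list was −0.07. Glyma.11G120400 went from 173 to 1.78 RPKM, 97.1-fold lower (67.1 to 146), and had 7.66 in W55. Glyma.07G141500 went from 468 to 47.4 RPKM, with 94.3 in W55 and 0.0114 at 200 to 300 mg, and Glyma.13G005500 from 363 to 100.3. Higher at 25 to 50 mg were Glyma.10G297600, from 25.8 to 284 RPKM, and Glyma.03G073500, from 0.610 to 28.5.

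Some sugar and amino acid carriers had much higher levels at 25 to 50 mg, while their families as a whole lay near the median difference. SWEET proteins let sucrose leave cells down its gradient. Of 29 kept models of that family, 8 were at least 4-fold higher (4 on the median scale) and 0 lower. The pair Glyma.08G183500 and Glyma.15G049200, matched to SAG29 (SWEET15), had 55.0 and 15.004 RPKM at 5 to 6 mg, 522 and 234 at 25 to 50 mg, 622 and 243 in W55 and 443 and 161 at 200 to 300 mg, the first 9.50-fold higher (9.22 to 9.78). Other members did not follow: Glyma.05G202700 and Glyma.08G010000 had 122 and 84.9 RPKM at 5 to 6 mg against 55.0 and 55.2, with 93.3 and 89.2 in W55. MtN21-like carriers, a family with amino acid exporters, had 60 models kept, 23 of them through the 25 to 50 mg library alone, and a median of 0.73 without a minimum. The highest were the pair Glyma.19G227000 and Glyma.19G227900, from 3.55 and 3.48 to 68.9 and 71.0 RPKM. Both also had high levels in the 5 to 6 mg cotyledon, at 78.3 and 77.3 RPKM. Amino acid permeases, which take amino acids into cells, had 17 of 62 kept models at least 4-fold higher but 2 on the median scale, and a median of 1.16. The sucrose symporter Glyma.02G075000, matched to SUC2, went from 2.46 to 23.0 RPKM, while the SUS4 sucrose synthases such as Glyma.13G114000, at 87.9 and 176 RPKM, lay near the median difference.

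Invertases, which split sucrose, had 1 of 9 kept models at least 4-fold lower and 0 higher. Their median of −1.16 became 1.23 when only the 3 models with at least 5 RPKM were kept. Of the 9, 5 passed through the 5 to 6 mg library alone and had to be lower, which fixes part of the first median. The list summed to 57.6 RPKM at 5 to 6 mg and 94.3 at 25 to 50 mg. The vacuolar invertases Glyma.05G056300 and Glyma.17G138500 had 23.6 and 10.6 RPKM at 5 to 6 mg and 55.7 and 27.1 at 25 to 50 mg, and the cell wall invertase Glyma.14G096600 6.78 and 4.90. Aquaporins, the water channels, had a median of −0.12 that became 0.07 with W55 and 0.58 without rescaling. Of 44 kept, 3 were at least 4-fold higher (2 on the median scale) and 2 lower, the latter both matched to PIP2A: Glyma.19G181300 went from 75.7 to 5.30 RPKM, 14.3-fold lower (12.1 to 16.9), and Glyma.03G180900 from 37.5 to 2.10.

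Some hormone lists held members that differed in direction. Gibberellin 2-oxidases, which inactivate gibberellin, were the highest models of the gibberellin list, of which 10 of 52 were kept. Glyma.15G248400, matched to GA2OX2, went from 4.86 to 76.4 RPKM, 15.7-fold higher (14.4 to 17.1), with 41.0 in W55 and 108.1 at 200 to 300 mg. The GA2OX1 models Glyma.13G259500, Glyma.13G259400 and Glyma.01G105200 had 6.00, 3.66 and 4.20 RPKM at 5 to 6 mg and 72.8, 41.5 and 48.4 at 25 to 50 mg, so that they were 12.1, 11.4 and 11.5 times higher. The synthesis enzyme GA3OX1 was at 2.54 and 0.457 RPKM in Glyma.13G361700, which is near the limit of 1 RPKM. That model was kept through the 5 to 6 mg library alone, so that it had to differ. Abscisic acid genes were low at both stages, at 12.3 and 41.3 RPKM in sum, and NCED3, the enzyme of the committed step, went from 1.15 to 8.602 RPKM in Glyma.15G250100, 7.46-fold higher (6.47 to 8.62), but had 3.36 in W55, a log2 difference of 1.46 in place of 2.80. Cytokinin oxidases, which break cytokinin down, had members in both directions. The CKX3 models Glyma.17G054500 and Glyma.13G104700 went from 21.4 and 9.02 to 1.38 and 0.806 RPKM, the first 15.5-fold lower (12.0 to 20.3). The models matched to CKX5 or CKX7, Glyma.14G099000 and Glyma.17G225700, went from 0.317 and 0.184 to 5.18 and 4.56. Of 7 kept, 3 passed through the 25 to 50 mg library alone and 2 through the 5 to 6 mg library alone, and such models had to differ. Among those named, only Glyma.17G054500 reached 1 RPKM in both libraries. Among Aux/IAA repressors of auxin response, Glyma.13G361200, matched to IAA17, stood at 74.5 and 104.3 RPKM, and the IAA4 models Glyma.02G142600 and Glyma.10G031800 went from 0.513 and 0.740 to 12.8 and 13.2.

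**Figure D4:**
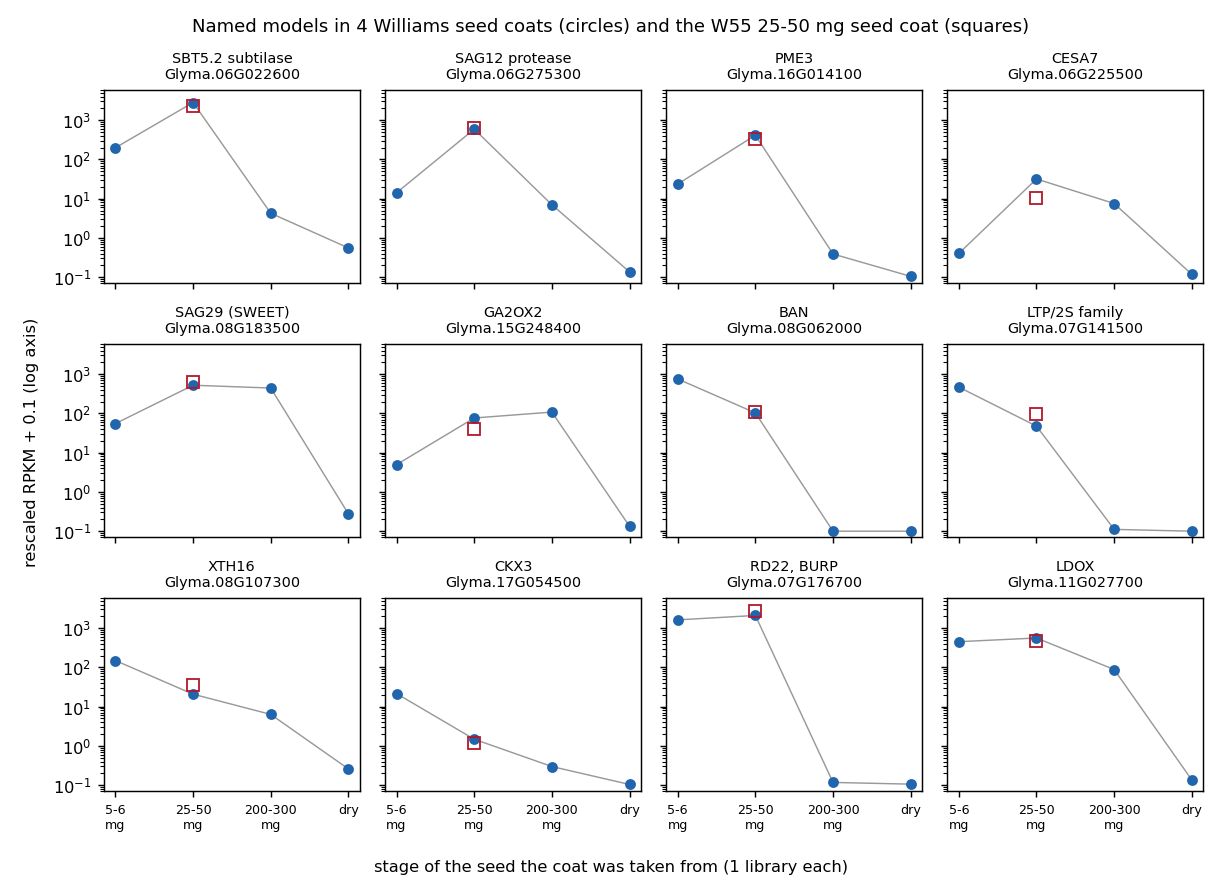
Rescaled RPKM + 0.1 (y, log axis) of 12 named models in the 4 Williams seed coats ordered by stage (x), 1 library each as blue circles joined by grey lines, and in the W55 seed coat of 25 to 50 mg as red squares. The SBT5.2 subtilase, the SAG12 protease and PME3 stand highest at 25 to 50 mg, BAN, the lipid transfer model, XTH16 and CKX3 at 5 to 6 mg, and SAG29 keeps a high level at 200 to 300 mg.

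Most histone and ribosomal protein genes lay below the median difference, and whether they lay below 0 depended on the scale. Core histones, needed when DNA is copied, had 13 of 78 kept models above 0 and 1 above the median difference, 1 at least 4-fold lower on the scale of equal sums and 29 on the median scale. Their median was −0.76 on equal sums, −0.19 with the length bins aligned, −0.06 without rescaling and −0.01 with W55. Their sum was 4628 RPKM at 5 to 6 mg, 3712 at 25 to 50 mg, 6484 in W55 and 8826 in the 5 to 6 mg cotyledon, so that the W55 library of the same weight stood above both Williams libraries. Glyma.18G015200 went from 240.0 to 81.8 RPKM, and the HTB9 models of histone H2B such as Glyma.12G065400, at 169 and 253 RPKM, had no direction on both scales. Ribosomal proteins summed to 28862 RPKM at 5 to 6 mg, 16003 at 25 to 50 mg and 21508 in W55, with 50 of 666 at least 4-fold lower (222 on the median scale) and 17 higher (3). Their median was −0.58 on equal sums, −0.03 with the length bins aligned, −0.22 with W55 and 0.12 without rescaling. The ribosomal L39 model Glyma.06G064200 went from 207 to 25.4 RPKM and the L29 model Glyma.20G240700 from 281 to 77.9.

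Mitotic cyclins, kinases and spindle proteins had a median of 0.54, between the 2 reference lines, with 2 of 50 at least 4-fold higher, 0 on the median scale, and 0 lower. The kinase CDKB2;2 had 12.9 and 13.6 RPKM in Glyma.14G224000, and the centromere histone CENH3, Glyma.07G057300, 12.1 and 3.93, 3.07-fold lower (2.43 to 3.92). DNA replication genes had a median of 1.36, with 7 of 47 at least 4-fold higher (3 on the median scale). Both counts were near the 16.2% and 5.23% of all kept models. The PCNA2 models Glyma.18G067800 and Glyma.08G334900 stood at 14.5 and 14.5 RPKM at 5 to 6 mg and 11.3 and 15.3 at 25 to 50 mg. At 200 to 300 mg the mitotic list summed to 22.2 RPKM against 243 at 25 to 50 mg.

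The label of the tissue was checked against ovule and seed coat genes, which were expressed at both stages. Models matched to the MADS-box factors STK (AGL11), SHP1 and SHP2 and to other integument genes, BAN among them, summed to 1251 RPKM at 5 to 6 mg and 862 at 25 to 50 mg, and to at most 39.7 in the 2 cotyledons named above, the root and the furled leaf, and 5 of 28 were at 0 at both stages. The STK models Glyma.04G257100 and Glyma.06G324400 had 107.5 and 80.0 RPKM at 5 to 6 mg and 123 and 125 at 25 to 50 mg, and the SHP1 model Glyma.08G310100 74.2 and 112. Smaller members of the family were higher at the later stage, such as the AG model Glyma.08G120600, from 5.67 to 31.5 RPKM, and SHP2, Glyma.14G019400, from 3.84 to 19.5. AP3, a petal and stamen factor of Arabidopsis, was lower, at 13.6 and 4.91 RPKM in Glyma.04G027200.

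Among other regulators, small MYB-like proteins of the CPC and ETC1 type, which repress trichome formation in Arabidopsis, were higher at 5 to 6 mg. Glyma.13G307300 and Glyma.12G195200, matched to ETC1, had 266 and 192 RPKM there, 134 and 74.4 at 25 to 50 mg and 7.74 and 1.11 at 200 to 300 mg. The CPC model Glyma.12G100600 went from 57.3 to 22.4 RPKM. The bHLH093 models Glyma.09G203000 and Glyma.01G019700 went from 127 and 122 to 37.5 and 37.9, the first 3.40-fold lower (3.20 to 3.61). On the other side, the homeodomain models Glyma.17G157600 and Glyma.05G109500, matched to HAT22, had 8.32 and 6.07 RPKM at 5 to 6 mg and 55.9 and 49.6 at 25 to 50 mg. The NAC models Glyma.12G221400 and Glyma.13G280000, matched to NAC2 (NAC056), a factor that acts in the Arabidopsis integument, had 4.41 and 3.70 RPKM, then 37.0 and 27.0, and 106.03 and 84.1 at 200 to 300 mg. As whole lists, MYB factors had 15 of 261 at least 4-fold higher on both scales and 6 lower, homeobox factors 13 of 133 and 1, and AP2/ERF factors 10 of 115 and 2, beside 5.23% and 1.95% of all kept models, so that the MYB counts were near the share of all models.

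Markers of the embryo were near 0 in the younger coat and low, but present, in the older. Seed storage globulins summed to 1.36 RPKM at 5 to 6 mg, 56.9 at 25 to 50 mg and 27.2 in W55, against 3969 in the 200 to 300 mg cotyledon and 991 in the seed coat of that stage. All 16 kept of 22 passed through the 25 to 50 mg library alone. The cupin Glyma.11G065800 went from 0.121 to 7.51 RPKM and Glyma.10G246300, matched to PAP85, from 0.203 to 7.10, while Glyma.20G148300 had no hit at 5 to 6 mg and 6.55 RPKM at 25 to 50 mg, at least 458-fold higher. Oleosins, the coat proteins of oil bodies, summed to 2.68 and 50.2 RPKM, and 49.4 in W55. The embryo regulators matched to LEC1, L1L, FUS3, ABI3 and LEC2 summed to 5.50 and 10.97 RPKM, with L1L, Glyma.17G005600, at 0.997 and 1.93 against 121 in the 5 to 6 mg cotyledon. Whether embryo RNA took part in the higher globulin and oleosin levels was not tested. Endosperm genes were near 0 too: 3 of 61 listed models were kept, with AGL62, Glyma.20G136600, at 1.19 and 0.155 RPKM. Light harvesting and Rubisco small subunit genes summed to 1304 and 1203 RPKM, against 26432 in the furled leaf.

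Small heat shock proteins, chaperones made under heat and in ripening seed, had 46 of 84 models kept, 24 of them through the 25 to 50 mg library alone. Their sum was 167 RPKM at 5 to 6 mg and 487 at 25 to 50 mg, but 186 in the W55 seed coat of the same weight. Glyma.14G100000, matched to HSP17.6II, had 0.581, 14.1 and 1.39 RPKM in these 3 libraries, so that the Williams value stood apart from both others.

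The 20 largest rises, taken from models that reached 10 RPKM at 1 stage or both, ranged from 6.39 to 10.97 on the log2 scale, and 10 of them had no Arabidopsis match. The steepest was Glyma.12G030800, matched to the glycine-rich cold shock domain protein GRP2B (CSP4), an RNA-binding protein, with 14 hits and 0.0955 RPKM at 5 to 6 mg, 392 at 25 to 50 mg, 324 in W55 and 0.163 at 200 to 300 mg. A second model with that match, Glyma.08G150600, had no hit at 5 to 6 mg and 38.7 RPKM at 25 to 50 mg, at least 706-fold higher. In the 5 to 6 mg cotyledon, root and furled leaf these 2 stayed at or below 0.595 RPKM. Among the models without a match, Glyma.14G052700 went from 12.6 to 1100.4 RPKM with 1165 in W55, and Glyma.09G084200 from 0.646 to 462 with 412 in W55. Glyma.13G237700, a late embryogenesis abundant protein of drying seed, had 0.0743 RPKM at 5 to 6 mg, 33.2 at 25 to 50 mg, 388 at 200 to 300 mg and 615 in the dry coat.

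The 20 largest falls ranged from 6.08 to 8.17 in size, and 14 of them were models shorter than 500 nt, against 3 of the 20 largest rises. They included 4 short models annotated as related to a vacuolar ATP synthase, the highest of which, Glyma.08G017100 of 168 nt, had 289 RPKM at 5 to 6 mg, 0.899 at 25 to 50 mg and 30.7 in the 5 to 6 mg cotyledon. The unannotated Glyma.U007400 went from 17527 to 124 RPKM and had 6361 in that cotyledon and 5037 in the dry seed coat. Glyma.16G174500, matched to the receptor-like protein RLP2, had 3738 RPKM at 5 to 6 mg, 16.1 at 25 to 50 mg, 761 in the 5 to 6 mg cotyledon and 1017 in the dry coat. By contrast, Glyma.10G214500, without annotation and the fifth highest model at 5 to 6 mg with 5666 RPKM, had 132 at 25 to 50 mg, 2.67 in the 5 to 6 mg cotyledon and 743 in the root. The germin-like model Glyma.17G049800, matched to GER3, went from 13.01 to 0.0943 RPKM and had 944 in the furled leaf.

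Several further models were singled out after their values had been seen. The glycine-rich RNA-binding proteins GRP7 and GRP8, in Arabidopsis under the control of the circadian clock and of cold, had 79.9 and 1143 RPKM in Glyma.11G117300 and 67.9 and 585 in Glyma.12G043000, with 1023 and 495 in W55. Alcohol dehydrogenase 1, Glyma.14G156400, an enzyme of fermentation, went from 21.5 to 365 RPKM, 16.9-fold higher (16.3 to 17.6), and had 412 in W55 and 23.1 at 200 to 300 mg. A pectin acetylesterase, Glyma.16G107500, which takes acetyl groups off pectin, went from 15.2 to 361 RPKM, with 131 in W55. Lower at 25 to 50 mg were the PLAT domain proteins Glyma.08G137000 and Glyma.05G179300, from 262 and 156 to 10.2 and 6.46 RPKM, and the gibberellin-regulated peptide Glyma.03G131700, from 218 to 13.02, with 26.1 in W55. Lower too were the models annotated as ATP synthase subunit 1, Glyma.05G092300, from 33.5 to 0.547 RPKM, and as cytochrome c oxidase subunit III, Glyma.12G155300, from 23.0 to 0.986. Other subunits of the respiratory chain and ATP synthase were not compared as a list, so no direction is given for them. Polyubiquitin 10, Glyma.20G141600, stood at 378 and 380.1 RPKM.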

How the data were processed

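RNA of 12 soybean samples was sequenced on Illumina machines. Bowtie placed the reads on the gene models of the Wm82.a2 assembly, where a read may count at several models. The authors deposited 1 RPKM value per model (its first splice variant) and library, without pooling. Whether both mates of a pair were counted is not given in the sources used here.

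From these deposited RPKM values, 136 unannotated models of chromosome 13 were dropped, each library was multiplied to the sum of the 25 to 50 mg Williams seed coat, and models that reached 1 RPKM in 1 library or both were kept. Differences are log2(RPKM + 0.1), 25 to 50 mg minus 5 to 6 mg, and so understate the change of low models. The limit was 4-fold. Model lengths and whole hits were recovered from the steps of the values to a tolerance of 0.001 hit, and 47 of 48 lengths listed for the study came out the same. Fold intervals are 95% Clopper-Pearson, with a floor of 3 hits in 1 library where it had none. The steps were tested on simulated data.

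Named models were the 20 largest rises and the 20 largest falls among those with at least 10 RPKM, the 5 highest in each library and, per list, the 4 highest and the 3 largest rises and falls with at least 5 RPKM, of which a selection is given. The members and lists were chosen with earlier results of these data known. Alternatives were the pseudocount, the minimum, the scaling, the fold limit, the length of the models and the W55 library. Gene names are those that the deposited table pairs with each model, from Arabidopsis matches. Python 3.11.15, numpy 2.4.6, pandas 2.3.3, scipy 1.17.1 and matplotlib 3.10.9 were used.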

Additional observations from a re-analysis of the deposited data

How the results depend on the processing

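The counts of models past the limit moved with nearly every choice, and of the named models only Glyma.15G217100, an MLP-like protein, changed sign with a value past the limit, from 1.65 to −3.02 with W55 (the length bins were not run for single models). Beside 5030 higher and 605 lower, a pseudocount of 1 RPKM gave 1410 and 240, a minimum of 5 RPKM 2261 and 270, deposited values without rescaling 10615 and 280, and a 2-fold limit 14829 and 1865. With the median ratio of models of at least 5 RPKM in both libraries set to 1, the counts were 3289 and 838. After the data had been seen, 2 scalings were added: the median difference set to 0 gave 1620 and 1737, and equal sums without all unannotated models 3335 and 967. A pseudocount of 0.01 RPKM, no minimum and the W55 library in place of the Williams one, which shares the 5 to 6 mg library, kept both counts within 1.5 times, at 5782 and 668, 6388 and 899, and 3704 and 591. The median of the invertases turned from −1.16 to 1.23 with a minimum of 5 RPKM, which left 3 models, and that of the endosperm markers from 1.86 to −0.84 without a minimum, which took in 24 models. That of the cytokinin oxidases turned from 0.81 to −3.33 with a minimum of 5 RPKM, which left 3 models, and that of the chalcone synthases from 0.08 to −1.17 with W55, which kept 15. The minimum changes which models enter a median by construction. The W55 setting changes the genotype too, as the deletion in W55 takes chalcone synthase genes out of the I locus. With W55, Glyma.08G110500, Glyma.08G110700 and Glyma.08G109300 of that locus went from 0.002, 0.02 and 0.50 to −1.68, −1.70 and −1.27. The CHS7 and CHS8 models Glyma.01G228700 and Glyma.11G011500 went from 0.35 and 0.15 to 2.91 and 2.85. The cause of the turn in the chalcone synthase median was not tested.

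No paired analysis was possible because each stage has 1 library, and for the same reason there was no replicate to leave out. Depth limits low models: a level under 1 RPKM at 25 to 50 mg rests on few hits, and intervals from hits leave out the spread between plants.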
